A study of Drosophila melanogaster with 13 samples.

Results

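A set of 25 genes in the heads of young adult Drosophila melanogaster stood at a level at least 20 times lower in 1 of 3 fly lines than in another, and for most of them the low line was close to silent. The members were chosen from the measured values themselves. Levels are counts per M gene reads (CPM), and a gene entered the set when its highest line mean was 5 CPM or more and its lowest line mean was at most 1/20 of that. Genes whose FlyBase symbols begin with Obp, Or, Gr, Ir, Cyp, Cpr, Gst, Lsp, Fbp, asRNA or lncRNA were set aside, which removed 10 genes, 5 of them antisense or long non-coding RNAs. The 25 that remained are 0.298% of the 8385 genes that reached 5 CPM in some line, out of 17370 genes counted. Because the line means chose the members, their differences between lines are described here and not tested.

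The flies were of the isofemale lines SD2, SD3 and SD6, each descended from a single wild-caught female, and no transgene or mutant allele is named for any of them. Larvae were reared at 25 °C, 40 to a vial and 10 vials per line and diet. The food was rich in protein and poor in sugar (HPS, protein over carbohydrate 0.43) or the opposite (LPS, 0.1). Poly(A) RNA was sequenced from pools of 70 to 80 heads of males or of females, collected 2 to 6 h after eclosion, with 1 pool for each line, sex and diet. Males and females of a line and diet shared vials, so a p-value covers no more than the spread of these pools. Each line has a single founder, so a difference between lines is a difference between these 3 stocks.

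An isofemale line carries the gene variants that its founder happened to bear, and breeding within the line fixes many of them. Such variants may lie in a gene, beside it or elsewhere in the genome, and lines of the same species therefore commonly differ in how much RNA they hold of a given gene. The set contains a stress and lifespan receptor (mth), a cell cycle regulator (fzy), a germ line differentiation factor (bgcn), genes known from sperm development (Pkd2, SdicC, r-cup), enzymes such as alcohol dehydrogenase (Adh), and a number of genes known only by their annotation numbers. In all, 24 are annotated as protein coding and 1, swaPsi, as a pseudogene. A named gene symbol exists for 15 and a CG number alone for 10.

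The 13 libraries held 7.84 M to 25.3 M gene reads each, and 3 reads, taken as the floor of detection, corresponded to between 0.119 and 0.382 CPM. From the RNA of male LPS SD2 flies 2 libraries exist, from different runs, which were added to 27.5 M reads and counted as 1 sample. A smaller run (run0465) comprises 1 of this pair with male HPS SD2, and in it 10.4% and 14.9% of reads fell outside genes against 2.93% to 4.96% in the larger run, so the smaller run holds SD2 males alone. The tissue label was checked on head genes, with ninaE, the main rhodopsin of the outer photoreceptors, at 18121 to 28466 CPM and the synaptic gene nSyb at 956 to 1123 CPM. By edgeR's quasi-likelihood test, line was called for 0 of 4 neuron, 3 of 5 photoreceptor, 3 of 3 glial and 1 of 3 muscle genes tested. It was also called for 3 of 4 fat body and 1 of 2 haemocyte genes, beside 35.1% of all genes. Of these, 1 muscle and 2 fat body genes were 2-fold apart or more. Of 7 testis genes 7 were below 1 CPM in all 10 samples, and aly, dj and Mst84Db were at 0 reads throughout. Of 3 accessory gland genes 3 were also below 1 CPM in each of those samples. Of 4 ovary genes 3 were, and vas reached 2.06 CPM. Of 4 gut genes 2 were, but Amy-p averaged 2.37, 9.68 and 3.85 CPM in SD2, SD3 and SD6. Amy-d averaged 1.65, 14.4 and 2.28 CPM. Both were called by line with a 2-fold difference by edgeR's quasi-likelihood test, beside 9.76% of all genes. Whether other tissue has a part in the members' differences was not tested.

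The libraries labelled male LPS SD3 and male LPS SD6 went against their labels, and the rule leaves both out. The line means therefore rest on 10 samples, 4 of SD2, 3 of SD3 and 3 of SD6, and values are listed in the order female HPS, female LPS, male HPS and, for SD2, male LPS. The members themselves showed the conflict. Of 14 members that compare SD3 with SD6, the library labelled SD3 lay nearer to the SD6 mean for 12, and the exceptions, Pkd2 and fzy, were near 0 in both lines. The library labelled SD6 lay nearer to the SD3 mean for 13, with fzy as the exception. Some of the 12 and 13 also rest on very few reads and carry little weight. In the library labelled SD3 lcs held 3 reads, and in that labelled SD6 lcs held 2 and Pkd2 and r-cup 1 each. Of the 10 members whose SD3 and SD6 means stood 20 times or more apart, 10 of 10 placed each library with the other line. The library labelled male LPS SD3 held 25.2 CPM of bgcn and 1.30 CPM of mth. Its counterpart labelled SD6 held 0.340 and 52.5 CPM of them. With both libraries counted as labelled, the same rule gave 18 genes, 17 of them among the 25.

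**Figure D1:**
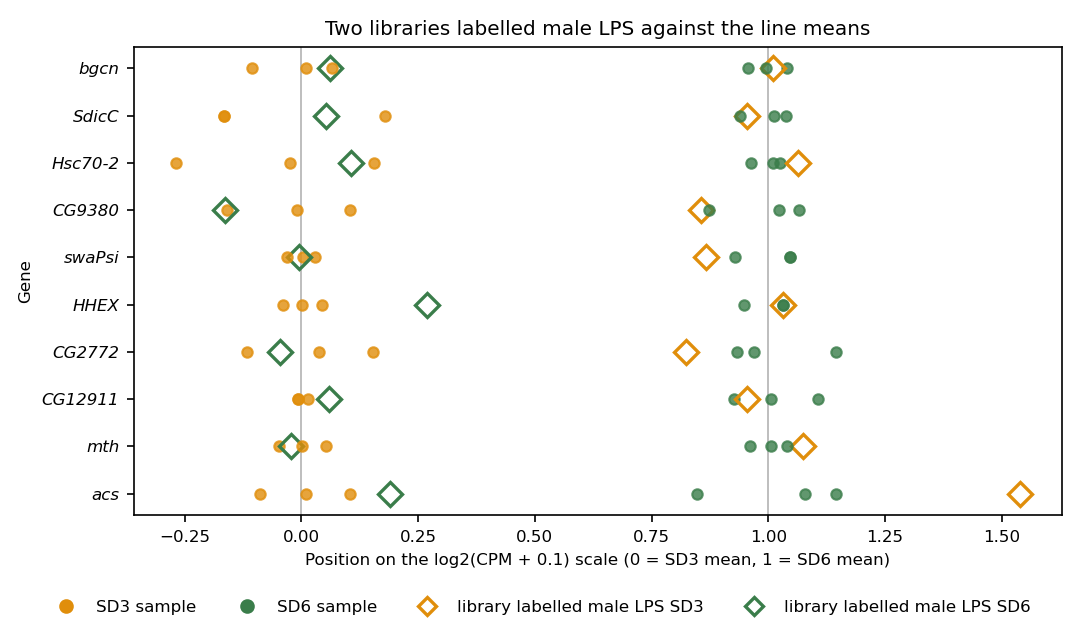
The horizontal axis places each sample on the log2(CPM + 0.1) scale between the SD3 mean (0) and the SD6 mean (1) for the 10 genes that differ by 20 times or more between these lines; filled circles are the samples used and open diamonds the 2 libraries left out. In each row the library labelled male LPS SD3 lies nearer to 1 and the library labelled male LPS SD6 nearer to 0.

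By the means, SD2 was the lowest line for 15 of the 25 genes, SD6 for 7 and SD3 for 3. For 12 genes the samples of the middle and the lowest line overlapped, so which of these lines was lowest is not firm. For bgcn the means were 0.2402 CPM in SD2 and 0.2401 CPM in SD3. The highest line was SD3 for 13, SD6 for 8 and SD2 for 4. The lowest line mean was below 1 CPM for 21 genes, and for 6 genes the lowest line held 3 reads or fewer in all its samples together. In every one of the 25 the samples of the highest and of the lowest line did not overlap, a separation that the rule itself largely sets, beside 47.7% of the 8385 genes that reached 5 CPM. Over all 10373 genes tested, edgeR's quasi-likelihood test called 35.1% by line and 9.76% by line with a difference of at least 2-fold, and nothing is read from the members' count against any of these shares. In pooled heads, fewer cells that make an RNA and less of it per cell cannot be told apart.

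The words "silent in one line" describe only some of the set. For 4 genes the middle line was also high, at 50% or more of the highest: sordd2, Kaz1-ORFB and CG13877 were low in SD2 alone, and mth was low in SD6 alone. For 11 genes, 44.0% of the set, the middle line too was at most 1/20 of the highest, so these were detected well in 1 line and were near silent in the other two. The 3 found in SD2 were fzy, Pkd2 and lcs, the 4 found in SD3 were CG12911, HHEX, CG2772 and swaPsi, and the 4 found in SD6 were bgcn, Hsc70-2, CG9380 and SdicC. The remaining 10 had a middle line between these limits. The lines overlapped between middle and lowest for 12 genes and between highest and middle for 2, CG13877 and mth.

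**Figure D2:**
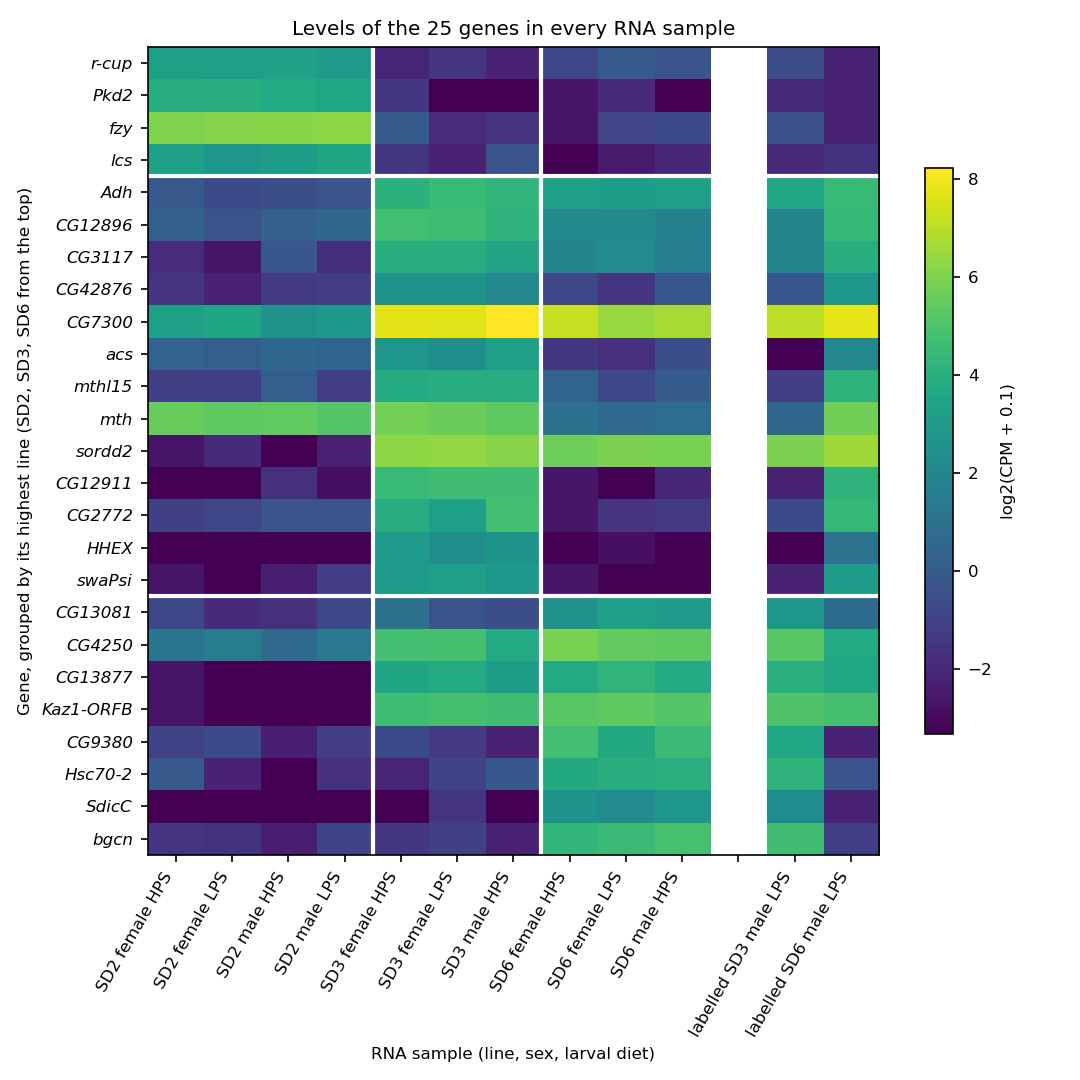
Colour gives log2(CPM + 0.1) for each of the 25 genes (rows, grouped by highest line) in each of the 10 RNA samples used and, after the gap, in the 2 libraries left out. Rows change colour between the blocks of SD2, SD3 and SD6 samples far more than within them, and the last columns follow the line that their labels do not name.

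Among regulators of protein turnover, sordd2, a RING-finger gene of the ubiquitin ligase type, had the largest ratio between lines among members with more than 3 reads in the lowest line. Its levels in SD2 were 0.0593, 0.170, 0 and 0.109 CPM, from 7 reads in 72.29 M gene reads. In SD3 they were 76.5, 81.4 and 70.7 CPM and in SD6 50.3, 62.4 and 59.0 CPM. All 4 SD2 samples were therefore at or below the floor, while the 6 others were high and SD3 did not overlap SD6. The ratio of the SD3 to the SD2 mean was 901. Both libraries left out were high as well, at 61.7 CPM (labelled SD3) and 96.9 CPM (labelled SD6). The related gene sordd1 was present in all 3 lines, with 93.2 ± 3.94 CPM (SD, n = 4) in SD2, 64.0 ± 6.29 (SD, n = 3) in SD3 and 85.0 ± 8.00 (SD, n = 3) in SD6. The gene sordd2 lies on the minus strand of X at 15796908 to 15799162 in the BDGP6 assembly.

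Kaz1-ORFB, which encodes a protein with a Kazal-type protease inhibitor domain, and CG13877 lie on the plus strand of 3L at 216625 to 218058 and 218068 to 218663, with 9 bp between them. Both were lowest in SD2, where each was represented by 1 read, in the same female HPS sample, so SD2 held 0.0138 CPM of each with an exact Poisson 95% interval of 0.00035 to 0.0771 CPM. Kaz1-ORFB stood at 24.7, 28.1 and 25.8 CPM in SD3 and at 36.9, 41.5 and 35.1 CPM in SD6. CG13877 stood at 11.3, 13.2 and 8.69 CPM in SD3 and at 13.1, 18.8 and 13.1 CPM in SD6. Kaz1-ORFB separated the lines completely, with SD6 above SD3, whereas CG13877 overlapped between SD3 and SD6. The libraries left out held 32.1 and 28.2 CPM of Kaz1-ORFB. The TRP channel gene pyx runs on the opposite strand across 93.2% of the exonic bases of CG13877. It was present in each line, at 8.03, 11.3 and 13.2 CPM in SD2, SD3 and SD6, the same order of lines. It was called by line with edgeR's quasi-likelihood test (adjusted p = 0.00107), as were 35.1% of all genes. Kaz1-ORFA, annotated within Kaz1-ORFB on the same strand as a pseudogene, had 0 reads in every sample, and reads over the 24.1% of exonic bases it shares would have counted as ambiguous.

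Among receptors, mth (methuselah) is a G protein-coupled receptor gene known for effects on lifespan and stress resistance. It was the reverse case, high in SD2 and SD3 and low in SD6. Its levels were 46.2, 41.4, 42.1 and 35.2 CPM in SD2, 56.9, 48.4 and 40.8 CPM in SD3, and 1.93, 1.46 and 1.66 CPM in SD6. SD2 and SD3 overlapped, and no SD6 sample came near them. SD6 was low but not at the floor, since its samples held 23 to 37 reads each. The gene lies on the minus strand of 3L at 343378 to 346957, inside Ptpmeg on the opposite strand, and Ptpmeg itself ran at 159, 172 and 167 CPM in SD2, SD3 and SD6.

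A second member of the same family, mthl15, showed another pattern, with 14.4 ± 0.722 CPM (SD, n = 3) in SD3, 0.878 ± 0.378 (SD, n = 3) in SD6 and 0.500 ± 0.319 (SD, n = 4) in SD2. Of 16 listed methuselah genes, 5 were below 1 CPM in all samples. Of the 9 tested that are not members, 7 were called by line with edgeR's quasi-likelihood test, 3 of them 2-fold or more, beside 35.1% and 9.76% of all genes. These 3 were mthl3, at 0.988, 4.11 and 6.57 CPM in SD2, SD3 and SD6, mthl4, at 0.816, 2.81 and 8.73 CPM, and mthl10, at 30.2, 58.1 and 30.0 CPM. By their means, mth, mthl15 and mthl10 were highest in SD3 and mthl3 and mthl4 in SD6, and the lowest line was SD2 for mthl15, mthl3 and mthl4.

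**Figure D3:**
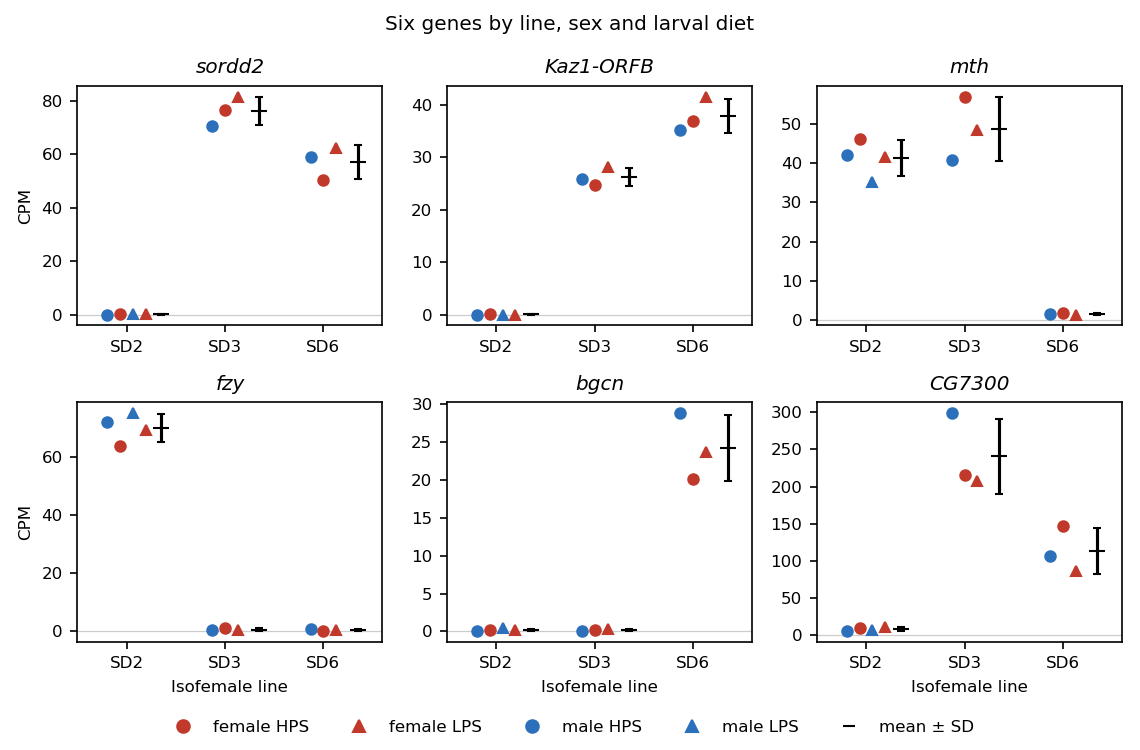
Each panel shows CPM on a linear axis by line for 1 gene, with a point for each RNA sample (circles HPS, triangles LPS, red female, blue male) and a bar for the mean ± SD (n = 4 in SD2, 3 in SD3 and 3 in SD6). The lowest line is SD2 for sordd2, Kaz1-ORFB and CG7300 (8.31 CPM there) and SD6 for mth, while fzy is high in SD2 alone and bgcn in SD6 alone.

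The cell cycle gene fzy (fizzy) encodes the Cdc20 protein, which activates the anaphase-promoting complex in dividing cells. In SD2 its levels were 63.8, 69.3, 72.3 and 75.2 CPM. In SD3 they were 0.892, 0.175 and 0.232 CPM and in SD6 0.0643, 0.435 and 0.504 CPM. Every SD2 sample was high and every other sample was under 1 CPM, with SD3 and SD6 overlapping. The spread within SD2 was small, with a coefficient of variation of 6.97%, and the 2 libraries of the male LPS SD2 RNA gave 74.0 and 76.9 CPM. The gene lies on the plus strand of 2L at 16310956 to 16313097 and shares 62 bp with cact on the opposite strand. Its neighbours did not follow it, since cni stood at 62.2, 59.5 and 56.6 CPM in SD2, SD3 and SD6 and cact at 230, 308 and 250 CPM. Of these, cact was called by line with edgeR's quasi-likelihood test (adjusted p = 0.00122), as were 35.1% of all genes. Its mean was lowest in SD2, where fzy was highest.

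The germ line gene bgcn (benign gonial cell neoplasm) is the partner of bam in the differentiation of germ line stem cell daughters. It was present in SD6 at 20.1, 23.6 and 28.8 CPM. In SD2 it stood at 0.237, 0.227, 0.0978 and 0.399 CPM and in SD3 at 0.255, 0.349 and 0.116 CPM. The 3 SD6 samples were high and the other 7 were low and overlapped between SD2 and SD3. Its partner bam was at 0 to 0.128 CPM over the 10 samples. Of 5 tested genes that act with bgcn and are not members, 1 was called by line, tut, at 0.637, 0.298 and 1.65 CPM in SD2, SD3 and SD6, and 1 by sex, the sex determination gene Sxl, both by edgeR's quasi-likelihood test and beside 35.1% and 7.72% of all genes. The other 3, mei-P26, pum and twin, were present in every line. The gene Pym, on the same strand within the span of bgcn, ran at 9.11, 8.20 and 9.32 CPM. On the other side gbb, 22 bp from bgcn, stood at 41.9, 37.7 and 58.8 CPM in SD2, SD3 and SD6. It was highest in SD6, as bgcn is, and was called by line with edgeR's quasi-likelihood test (adjusted p = 1.78e-05), as were 35.1% of all genes.

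Of genes known from sperm development, 3 were members, and they did not all share the same highest line. Pkd2 encodes a polycystin-2 type channel needed for sperm movement, and its levels were 14.8, 15.5, 13.4 and 11.8 CPM in SD2 against 0.255, 0 and 0 CPM in SD3 and 0.0643, 0.158 and 0 CPM in SD6. The gene r-cup, transcribed after meiosis in spermatids, stood at 9.01 ± 0.942 CPM (SD, n = 4) in SD2, 0.159 ± 0.0645 (SD, n = 3) in SD3 and 0.680 ± 0.212 (SD, n = 3) in SD6. Both were thus high in SD2, in females as in males. SdicC, a copy of the sperm dynein intermediate chain gene, was instead found in SD6, at 5.98, 4.62 and 6.55 CPM. It had 0 reads in SD2, where 3 reads would be 0.0415 CPM, so its SD6 mean was at least 138-fold higher than that floor over the line, and SD3 held 4 reads in 1 sample. SdicC is 1 of a row of near-identical copies between AnxB10 and sw on X. Reads shared by the copies were not counted, so its level is uncertain, and Sdic1, the copy with most reads among those not in the set, held 8 reads in SD2, 1 in SD3 and 0 in SD6. The 7 testis genes summed to 0 to 0.391 CPM in SD2, 0 to 0.765 CPM in SD3 and 0.0790 to 0.360 CPM in SD6.

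The pseudogene swaPsi, a copy of the maternal RNA-localisation gene swallow (swa), was found in SD3 at 7.78, 8.97 and 6.95 CPM. In SD2 it stood at 0.0593, 0, 0.0978 and 0.327 CPM, and in SD6 a single read was counted in 54.73 M. Its parent gene swa was near 0 in each line, with 6, 10 and 1 reads in SD2, SD3 and SD6. HHEX, a homeobox gene, was likewise found in SD3, at 7.27, 5.18 and 6.14 CPM, with 0 reads in SD2 and 1 read in SD6. Its SD3 mean was at least 149-fold above the floor of 3 reads over SD2. CG12911 stood at 22.7, 25.3 and 25.4 CPM in SD3, with 3 reads in SD2 and 3 in SD6. For these 3 genes the SD3 samples were far above all others, and SD2 overlapped SD6.

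Among enzymes and transporters, Adh, alcohol dehydrogenase, stood at 0.831, 0.510, 0.587 and 0.726 CPM in SD2, at 17.1, 22.8 and 19.0 CPM in SD3 and at 9.59, 8.46 and 9.50 CPM in SD6. The 3 lines did not overlap. Its level is uncertain, because 93.9% of its exonic bases are also annotated to Adhr on the same strand, where reads count as ambiguous, and Adhr had 0 reads in every sample. The fat body, a tissue that expresses Adh, is present in heads, and its 4 marker genes summed to 660 to 7538 CPM in SD2, 588 to 4740 CPM in SD3 and 694 to 4883 CPM in SD6. Of the 4, the yolk protein genes Yp1, Yp2 and Yp3 were called by line with edgeR's quasi-likelihood test, as were 35.1% of all genes. Their SD2 means were 1428, 1260 and 320 CPM, their SD3 means 1177, 1356 and 167 CPM and their SD6 means 1118, 860 and 422 CPM. FASN1, a fatty acid synthase gene, stood at 669, 652 and 724 CPM in SD2, SD3 and SD6. All 4 were also called by sex, as were 7.72% of all genes. The part of fat body in the Adh difference was not tested.

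CG12896, annotated as a peroxiredoxin, stood at 1.04 ± 0.273 CPM (SD, n = 4) in SD2, 23.1 ± 4.57 (SD, n = 3) in SD3 and 4.14 ± 0.719 (SD, n = 3) in SD6, again with no overlap. The next gene, Prx6b, was lowest in the same line but by far less, at 67.0 ± 24.9 CPM (SD, n = 4) in SD2 against 115 ± 22.8 (SD, n = 3) in SD3 and 121 ± 15.7 (SD, n = 3) in SD6. CG3117, a serine protease homologue, averaged 0.300, 13.4 and 3.80 CPM in SD2, SD3 and SD6. The amino acid transporter gene acs averaged 1.19, 6.95 and 0.344 CPM, and its 3 lines did not overlap either.

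Hsc70-2, a member of the Hsp70 chaperone family, was found in SD6 at 12.8, 15.0 and 15.8 CPM. It stood at 0.831, 0.113, 0 and 0.218 CPM in SD2 and at 0.128, 0.408 and 0.811 CPM in SD3, which overlapped. Other chaperones of the family were present in all lines, Hsc70-4 at 2163, 2003 and 2438 CPM and Hsc70-1 at 24.2, 20.7 and 25.8 CPM in SD2, SD3 and SD6.

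CG7300 had the highest line mean of the set, also per length, at 79.0 CPM per kb of exon. Its levels were 9.32, 11.2, 5.77 and 6.93 CPM in SD2, 215, 207 and 299 CPM in SD3 and 147, 85.8 and 106 CPM in SD6. SD2 was low relative to the others but far from silent, with 605 reads, and no samples of different lines overlapped. An antisense RNA lies opposite 98.1% of its exonic bases and averaged 0.709, 1.08 and 2.82 CPM in SD2, SD3 and SD6. CG4250 reached 73.3 CPM per kb, and its means were 2.21, 23.0 and 48.0 CPM. Together with mth and CG12896 these are the 4 members whose lowest line mean was 1 CPM or more.

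CG9380, whose span on 2R includes Kr within an intron, was found in SD6 at 27.2, 12.7 and 23.0 CPM and averaged 0.337 CPM in SD2 and 0.306 CPM in SD3. Kr, which encodes the transcription factor Krüppel, stood at 2.28, 2.40 and 2.40 CPM. CG2772 was found in SD3 at 14.7, 9.15 and 27.7 CPM, with a coefficient of variation of 55.5% against a median of 17.3% over the 25 genes in their highest lines, and averaged 0.546 CPM in SD2 and 0.196 CPM in SD6. The gene lcs was found in SD2 at 9.04 ± 1.79 CPM (SD, n = 4), with 0.356 ± 0.302 (SD, n = 3) in SD3 and 0.0743 ± 0.0721 (SD, n = 3) in SD6. The means of CG13081 were 0.328, 1.06 and 7.95 CPM and those of CG42876 0.243, 5.36 and 0.493 CPM in SD2, SD3 and SD6.

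Members just inside the ratio of 1/20 were CG42876, CG4250 and acs, with the highest mean 22.1, 21.8 and 20.2 times the lowest. Just outside were Ccp84Ag, ZnT35C and CG42763, at 19.8, 18.4 and 17.9 times. At the level threshold CG31157 fell short with a highest mean of 4.98 CPM, while CG42876 at 5.36 and SdicC at 5.72 CPM were inside. For the 19 members with more than 3 reads in the lowest line the ratio ran from 20.2 to 901, with a median of 44.7.

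Larval diet was not used by the rule, and all 25 members passed the filter on low counts, many through the line in which they are high. For 21 of them that line holds 1 LPS sample, on which the diet value largely rests. Without it the sign turned for 8, and the log2 values of these 21 ran from -2.13 (CG12911) to 3.53 (SdicC). None of the 25 was called by diet with edgeR's quasi-likelihood test, beside 1.42% of all genes tested, in a fit with sex and line over 4 LPS and 6 HPS samples. At an unadjusted p below 0.05 there were 3, beside 14.1% of all genes, DESeq2 called 0 and limma-voom 1. The log2 difference, LPS against HPS, ran from -0.91 to 0.41, with a median of -0.08 beside 0.0047 over all genes tested, and 11 members were positive and 14 negative. The lowest p was that of CG9380, with a log2 difference of -0.91 ± 0.25 (SE, adjusted p = 0.102 by edgeR). It rests on SD6, where female HPS and male HPS stood at 27.2 and 23.0 CPM and female LPS at 12.7 CPM. Without the female LPS SD6 sample the value was 0.24, with an adjusted p of 0.904 by edgeR, and DESeq2 over all 10 samples gave -0.35. The library labelled male LPS SD3, not used in the fit, held 11.8 CPM. The next was mth, at -0.23 ± 0.07 (SE, adjusted p = 0.157 by edgeR).

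Sex was not used by the rule either. Of the 25, 2 were called by edgeR's quasi-likelihood test beside 7.72% of all genes tested: CG2772 was higher in males, as were 2.8% of all genes, and mth lower, as were 4.93%. The median log2 difference, male against female, was -0.0039 over the 25 beside 0.0041 over all genes, with 12 positive and 13 negative, in 4 male and 6 female samples. For the 13 members highest in SD3 and the 8 highest in SD6, that line holds 1 male sample, on which the sex value largely rests. Without male HPS SD3, CG42876 moved from -0.0039 to 0.9712, but Adh only from 0.0092 to 0.0388. Without male HPS SD6, bgcn moved from 0.4305 to 0.0048. The median and the counts of sign are therefore not firm. CG2772 differed by 0.99 ± 0.23 (SE, adjusted p = 0.0201 by edgeR). In SD3 the 1 male sample stood at 27.7 CPM against 14.7 and 9.15 in the female samples. In SD2 males stood at 0.684 and 0.690 CPM against 0.356 and 0.453 in females. These SD2 values rest on few reads, 7 and 19 in the male samples and 6 and 8 in the female samples. SD6 also held too few reads to rank, 4 in the male sample and 1 and 6 in the female samples. Without the male HPS SD3 sample the value was 0.69, with an adjusted p of 0.417 by edgeR. The call was also lost without female HPS SD2 (adjusted p = 0.0901 by edgeR), without female HPS SD3 (0.0523) and without male LPS SD2 (0.0729).

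The log2 difference of mth, male against female, was -0.31 ± 0.08 (SE, adjusted p = 0.0274 by edgeR). Males and females overlapped in SD2, where male HPS at 42.1 CPM lay above female LPS at 41.4, and in SD6, and were apart in SD3, at 40.8 CPM against 56.9 and 48.4. The call was lost with DESeq2 (adjusted p = 0.0521) and in 5 of 10 fits that each left out a sample, with adjusted p by edgeR from 0.0594 to 0.142 in those 5. Next was CG4250, with a log2 difference of -0.58 ± 0.17 (SE, adjusted p = 0.0554 by edgeR). The smaller run holds SD2 males alone, and in the fit on the other run alone CG2772 and mth were still called by edgeR, with adjusted p of 0.0411 and 0.0426.

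**Figure D4:**
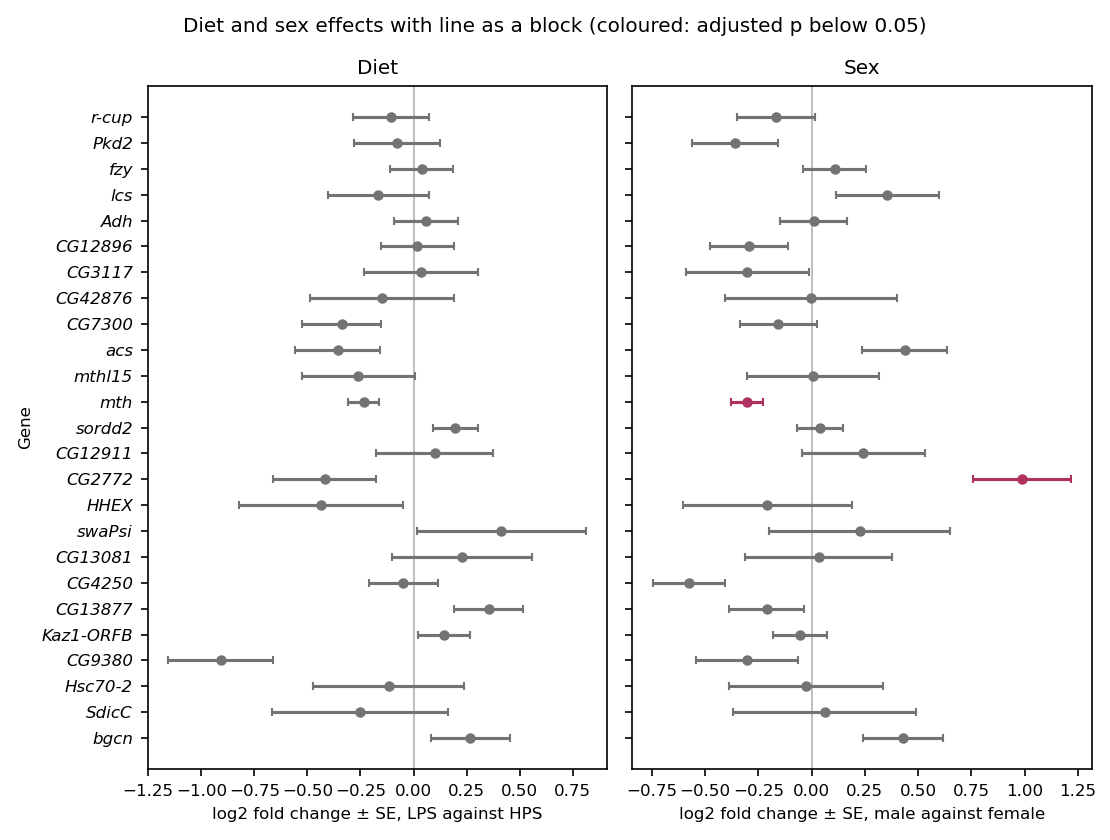
Points are log2 fold changes from edgeR with bars of ± 1 SE for the 25 genes, for diet (LPS against HPS, left) and sex (male against female, right), with line as a block; coloured points have an adjusted p below 0.05. No gene is coloured for diet, and CG2772 (0.99) and mth (-0.31) are coloured for sex.

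The members lay on 2L (9), 2R (5), X (5), 3L (4) and 3R (2). On 2L this is 36.0%, beside 17.7% of the 8253 annotated genes that reach 5 CPM in some line, and on 3R 8.0% beside 24.7%, given without a test. The median exonic length was 1578 bp, beside 2257 bp for those genes. Pairs within 500 kb included CG12911 and CG12896 on 2R, 165.6 kb apart, and mthl15 and CG7300 on 2L, 456.7 kb apart. By their means each of these was lowest in SD2 and highest in SD3. The SD2 and SD6 samples overlapped for CG12911 and mthl15, but SD6 lay between the other lines for CG12896 and CG7300. On X, r-cup and lcs, 370.8 kb apart, were both highest in SD2, with their lowest means in SD3 and SD6 respectively. CG13877 and mth, 124.7 kb apart on 3L, had different lowest lines. CG42876 and fzy, 498.8 kb apart on 2L, were highest in SD3 and SD2 respectively.

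Neighbours were the tested genes with the nearest start coordinate on each side of the start of the member. Members and the families set aside were passed over, and a gene overlapping or nested in the member could be taken. Of these neighbours, 49 in all, 22, or 44.9%, were called by line, beside 35.1% of all genes. By line with a 2-fold difference 8, or 16.3%, were called, beside 9.76% of all genes. Since the rule used this contrast, these shares are a description. Flanks with much the same mean in each line included Dis3l2 beside Kaz1-ORFB, at 42.8, 41.8 and 40.1 CPM in SD2, SD3 and SD6, CG15602 beside sordd2, at 18.1, 19.0 and 20.6 CPM, and bru2 beside Pkd2, at 33.9, 35.4 and 38.1 CPM. CR44383, a pseudogene 10 bp from sordd2, was lowest in the same line, at 0.0381, 2.66 and 2.93 CPM. CG31157, 342 bp from Hsc70-2, was highest in the same line, with 1 read in SD2, 2 in SD3 and 4.98 CPM in SD6. CG1532, 236 bp from r-cup, was highest in SD2 as r-cup is, at 101, 40.5 and 32.1 CPM. The gene mthl10, 462 bp from mth, was highest in SD3 as mth is, but its means in SD2 and SD6 were alike. CG2983, 419 bp from CG3117, ran opposite to it, with 32 reads in SD2, 0 in SD3 and 1 in SD6. Of the 8 flanks apart by 2-fold, 5 shared the highest line of the member and 4 the lowest. No share over all genes was computed for these counts, so nothing is read from them. Of the 49 neighbours 22 lie within 1 kb of the member. The 8 include CG15282, 93568 bp from Adh, and CG42792, 52787 bp from CG42876.

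**Figure D5:**
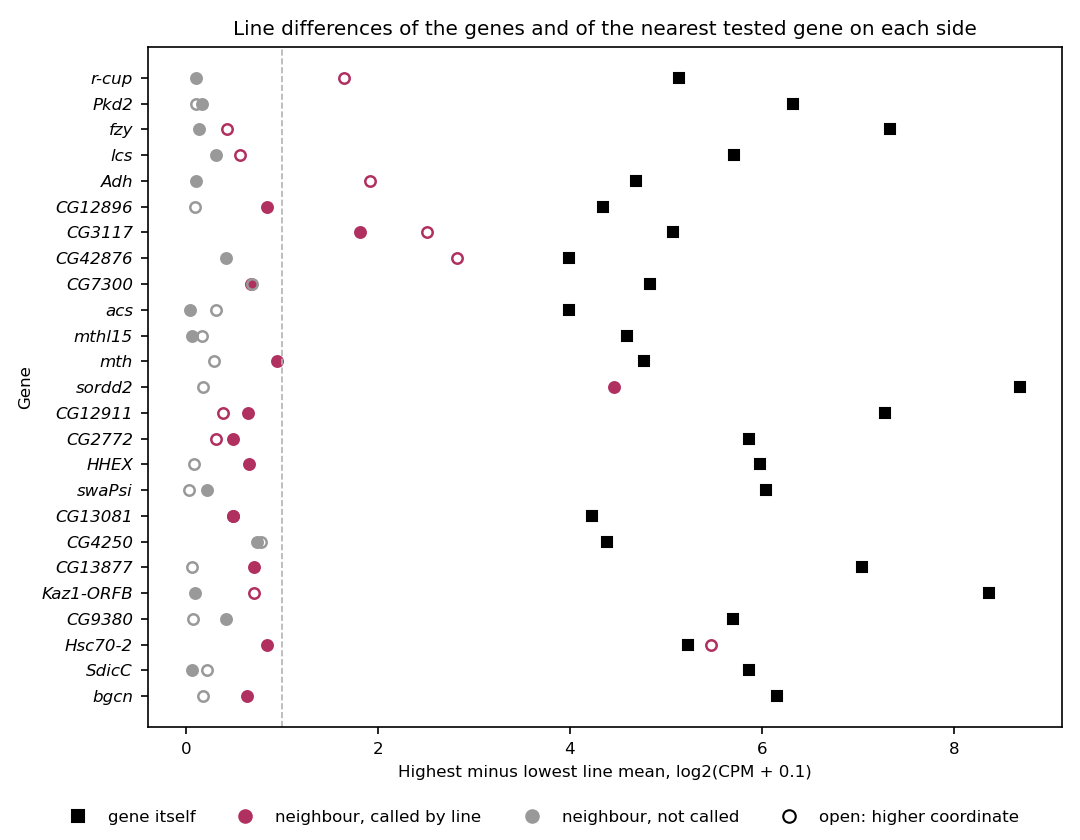
The horizontal axis is the difference between the highest and the lowest line mean in log2(CPM + 0.1), for each of the 25 genes (squares) and its neighbours (circles). A neighbour is the tested gene with the nearest start coordinate on each side, members and the families set aside passed over. Circles are open for the higher coordinate and coloured where the line test was called. The squares lie to the right, as the rule requires, and most circles lie left of the dashed line at 1, with CR44383 beside sordd2 and CG31157 beside Hsc70-2 among those to its right.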

How the data were processed

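The deposited values are raw read counts per gene, whole numbers that the authors did not normalize. HTSeq 0.6.1p1, TopHat2 2.1.0, bcl2fastq 1.8 and CASAVA 1.8.2 are the tools given, per the submitters' processing notes, and the deposited file names mark stranded counts of uniquely mapped reads. A read from a near-identical copy, or one that differs too far from the reference, is therefore not counted. The genome build is not given in the sources used here. Symbols and positions came from the BDGP6 annotation through FlyBase identifiers, matched for 17155 of 17370 genes. The 96 spike-in and 5 summary entries stayed out. Reads over 2 genes on a strand count as ambiguous. Intervals and floors cover counting error only.

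CPM used unscaled gene totals. The test was edgeR 4.0.16 under R 4.3.3 (TMM, filterByExpr over diet and sex groups at a minimum count of 10, quasi-likelihood F-test, 5 residual degrees of freedom), with diet, sex and line fitted together and Benjamini-Hochberg adjustment over 10373 genes. The threshold was an adjusted p below 0.05. DESeq2 1.42.0 and limma 3.58.1 were alternatives, beside other scalings, filters and left-out samples. The replicate numbers 2, 3 and 6 in the labels are the line numbers, so line is the block. Deviations from group means correlated at 0.584 to 0.749 over 9 pairs of the same number. Between numbers they correlated at -0.421 to -0.231. Subtracting the group mean makes these values negative once the former are positive, so nothing is read from their sign. Named genes were the 4 markers Kaz1-ORFB, sordd2, mth and bgcn, the members highest in each line, named members, those lowest in p by diet and sex, and those near the thresholds. The members and gene lists were chosen with earlier results of these data known.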

Additional observations from a re-analysis of the deposited data

Results flagged for a closer look

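In SD2, where 18 of the 25 genes could be examined for a sample standing apart, 1 did: mthl15 held 0.978 CPM in the male HPS sample against 0.327, 0.340 and 0.356 CPM in the others. The gap to the nearest sample was 0.955 of the whole range, above Dixon's critical value for 4 samples, a level that chance passes in about 5% of groups. The value rests on 10 reads, and the sample is 1 of the 2 libraries of the smaller sequencing run. It does not bear on the place of mthl15 in the set, since the SD3 samples stood at 13.8 CPM or more.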

How the results depend on the processing

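The set held 47 genes at a ratio of 1/10, 14 at 1/50 and 38 at a minimum of 2 CPM. It held 23 to 28 genes when each sample was left out in turn, and 21 members stayed in under all 10 of these. Members called by diet numbered 1 with no filter on low counts and 1 with limma-voom (CG9380 in both), and 0 in each fit that left out a sample. Over all genes, 147 were called by diet, 10 with all 12 samples as labelled, 221 with no filter and 272 with DESeq2, and from 30 (without female HPS SD2) to 205 when samples were left out. Without the replicate block for line, 0 genes were called by diet and 75 by sex, none of them a member, at an adjusted p below 0.05 by edgeR; 539 and 1254 had an unadjusted p below 0.05. Sex calls among members numbered 0 with all samples as labelled and 0 to 3 when samples were left out. Over all genes sex calls numbered 801, 305 as labelled, 508 in the larger run alone and 282 (without female HPS SD2) to 741 with samples left out. Genes beside a member called by line numbered 6 of 49 as labelled (12.2%, beside 9.2% of all genes). With 2 neighbours on each side they numbered 38 of 97 (39.2%, beside 35.1%). With samples left out in turn they numbered 19 to 23 of 49, beside 25.5% to 34.9% of all genes. Those apart by 2-fold numbered 3 as labelled (6.12%, beside 3.26%). They numbered 6 to 9 with samples left out, beside 8.62% to 9.9% of all genes. The direction turned for mth by sex (0.39), mth by diet (0.43) and CG9380 by diet (0.019) with all samples as labelled, and for CG9380 by diet without female LPS SD6 (0.24), within a range from -1.0 when samples were left out in turn; that fit has no LPS sample of SD6, the line in which CG9380 was detected. The cause of the others was not tested. Levels under the floor of 3 reads per library cannot be ranked.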
